A study of Mus musculus with 6 samples.

Results

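Trp53, which encodes p53, and 9 genes tied to it were followed in neural stem/progenitor cells (NSC/NPCs) of the fetal hypothalamus after prenatal exposure to high estradiol. The members were given by name and are Trp53 itself, its inhibitors Mdm2 and Mdm4, and the p53 target genes Cdkn1a, Ccng1, Sesn1, Phlda3, Zmat3, Aen and Eda2r. All 10 were found by symbol among the 22048 genes of the deposited table, and all 10 were among the 13952 genes with enough reads to be tested.

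The cells came from male fetuses of C57BL/6 dams 8 weeks of age. Dams of the HE group took estradiol valerate by gavage at 100 μg/kg/d from E5.5 to E11.5, and dams of the NC group took the corn oil solvent alone, although the sample labels call the NC cells untreated. Hypothalami were dissociated at E14.5, grown in both groups as neurospheres with EGF and bFGF, and harvested at first passage. The HE and NC groups had 3 samples each, and a sample pooled the cells of 2 mice. The estradiol was given to the dams, and none is listed in the culture medium. RPKM, the unit of level used throughout, is the number of reads per kilobase of gene scaled to the reads counted on all genes. NSC/NPC markers were present, with Sox2 at 195 to 209 RPKM in NC and 97.3 to 176 RPKM in HE, and Nes between 154 and 247 RPKM over the 6 samples. Between 16078675 and 19137059 reads were counted per sample, and HE3 had the fewest. HE3 also stood apart from the rest, with the lowest or the highest value of the 6 samples in 68.9% of tested genes, against 17.2% to 40.5% for each other sample, so a value that depended on it is also given without it.

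p53 is a transcription factor that is made and destroyed continuously. Mdm2 attaches ubiquitin to it and sends it to the proteasome, Mdm4 covers its activation domain, and DNA damage or other stress frees p53 from both. Free p53 then switches on genes that stop the cell cycle, repair DNA or start apoptosis, and also Mdm2, which closes a feedback loop. In the nervous system p53 is known for removing damaged progenitors and for limiting their self-renewal. Because p53 is regulated mainly as a protein, the mRNA of Trp53 says little about its activity, and the mRNAs of its targets are read in its place.

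In HE NSC/NPCs the level of Trp53 was close to that of NC, as was that of Cdkn1a, the target most often read for p53 activity. Ccng1 was 1.41-fold the NC level and above it in every HE sample, Aen was above NC in every HE sample by a smaller margin, and Phlda3 was below NC in every HE sample. Mdm2 and Mdm4 were low in HE3 alone. None of the 10 was called, where a call needed a change of 1 or more on the log2 scale and an adjusted p-value from limma under 0.05, and the same held for all tested genes (0%). The study itself reported differentially expressed mRNAs at the same cutoffs with a count model, so the absence of calls belongs to the test used here. The adjusted p-values of the members ran from 0.203 to 0.843. At an unadjusted p-value under 0.05 there was 1 member higher in HE, Ccng1, beside 8.68% of all tested genes, and 0 members lower, beside 11.8%. Together, 3 members were higher and 7 lower in HE, and their median log2 fold change was -0.14, beside -0.059 for all tested genes. Without HE3 these medians were 0.006 and -0.00018. All fold changes are on the scale of log2(RPKM + 0.1), and in bulk cultures fewer expressing cells cannot be told apart from less RNA per cell.

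**Figure D1:**
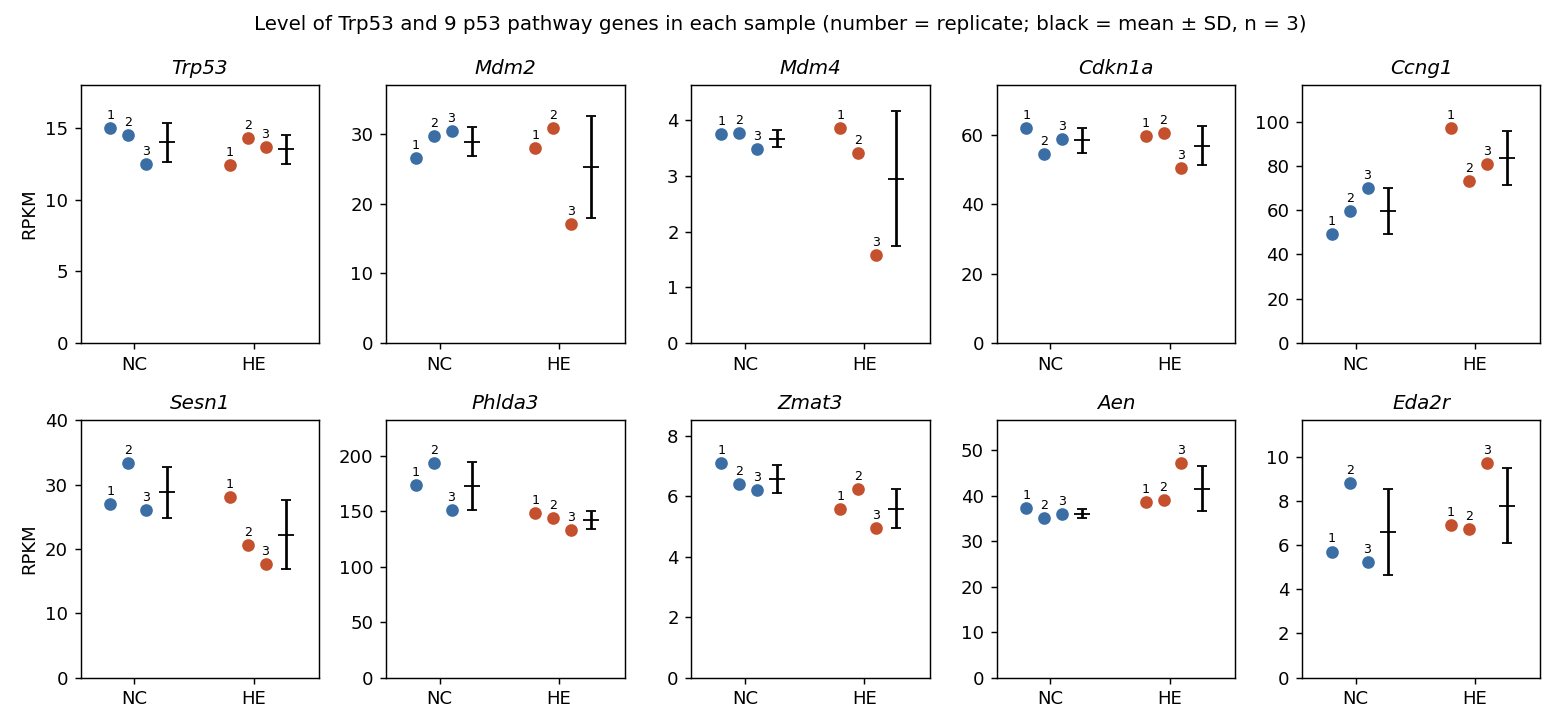
RPKM of each gene in the 3 NC and 3 HE samples, on axes that start at 0. Points are samples with their replicate number, and black marks are the group mean ± SD (n = 3). Ccng1 and Aen lie higher in all 3 HE samples, Phlda3 lies lower, and the low HE points of Mdm2 and Mdm4 are HE3.

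p53 binds DNA as a tetramer at paired copies of a 10-base half-site, made of 3 purines, a C, 2 bases that are A or T, a G and 3 pyrimidines. The RefSeq promoter windows of the members, from 250 bases before to 50 after an annotated start (GRCm38.p6), were searched on both strands, which for this palindromic pattern give the same matches. There were 13 such windows for 9 of the members, and Zmat3 had none in the table. A half-site was found in windows of 6 of the 9 genes, beside 9.55% of all genes with a window, and a pair of half-sites no more than 13 bases apart was found in 1, Cdkn1a, beside 0.074% of all genes. Only exact matches to the pattern were counted. The stretches that hold them are given 5′ to 3′ on the strand of the gene, with exact half-sites in capitals. Apart from Cdkn1a, each stretch holds a single exact half-site and not a pair.
Cdkn1a, plus strand, chr17:29090876-29090967: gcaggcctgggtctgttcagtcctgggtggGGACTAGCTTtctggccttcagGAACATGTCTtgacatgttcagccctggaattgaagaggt
Ccng1, minus strand, chr11:40755432-40755501: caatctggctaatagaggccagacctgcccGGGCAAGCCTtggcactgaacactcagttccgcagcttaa
Mdm2, minus strand, chr10:117710905-117710974: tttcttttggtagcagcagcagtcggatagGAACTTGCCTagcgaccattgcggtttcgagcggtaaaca
Trp53, plus strand, chr11:69580254-69580323: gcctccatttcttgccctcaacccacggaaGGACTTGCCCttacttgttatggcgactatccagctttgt
Sesn1, plus strand, chr10:41887236-41887305: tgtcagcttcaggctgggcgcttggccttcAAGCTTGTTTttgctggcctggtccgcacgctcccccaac
Aen, plus strand, chr7:78895927-78895956: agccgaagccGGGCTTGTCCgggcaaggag
The Cdkn1a pair of exact matches has a spacer of 12 bases and begins 73 bases before the more upstream of its annotated starts. The window at its other start held none. The 10 bases right after the downstream Cdkn1a half-site miss the pattern at only 1 base. So do the 10 bases right before the Ccng1 half-site. Pairs that include such a near match were not searched for, so the marked letters need not be the pair that p53 uses. In Ccng1 the half-site begins 185 bases before the start, in Mdm2 186 and in Trp53 75. In Sesn1 it begins 173 bases before the more downstream of the annotated starts, and the window at the upstream start held none. The Aen half-site begins at position +11 of the upstream start, inside the transcribed part, and 121 bases before the other start. Phlda3, Mdm4 and Eda2r had no match, which says only that these letters are absent from these windows, and a match is not a bound site. The genes with a half-site include the members higher in every HE sample, Ccng1 and Aen, and also Trp53, Mdm2, Cdkn1a and Sesn1, which overlapped between the groups.

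Measured per length, the members spanned a wide range of levels. In NC the order was Phlda3, Ccng1, Cdkn1a, Aen, Mdm2, Sesn1, Trp53, Eda2r, Zmat3 and Mdm4, and HE had the same order of means. Within NC the values of neighbours in this order overlapped for Ccng1 and Cdkn1a, for Mdm2 and Sesn1, and for Eda2r and Zmat3. In HE they overlapped for Mdm2 and Sesn1 alone. By mean RPKM over the 6 samples, Phlda3 stood at the 97.8th percentile of tested genes, Ccng1 at 94.7 and Cdkn1a at 93.4, whereas Mdm4 stood at 36.7. Several p53 targets were therefore among the abundant mRNAs of these cultures in both groups. Each member had between 375 and 6103 reads in a sample.

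Trp53 (ENSMUSG00000059552, chr11:69580348-69591873) had RPKM values of 15.0, 14.5 and 12.5 in NC1 to NC3 and of 12.4, 14.3 and 13.7 in HE1 to HE3. The groups overlapped throughout, and the lowest value was that of HE1. HE differed from NC by a log2 fold change of -0.051 with a 95% interval of -0.34 to 0.24 (adjusted p = 0.815 in limma), so that a level in HE from 0.791 to 1.18 times that of NC lies within the interval. Its relatives in the p53 family, Trp63 and Trp73, were at no more than 0.0187 and 0.162 RPKM in any sample, far below Trp53.

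Mdm2 (ENSMUSG00000020184, chr10:117688875-117710758), the ubiquitin ligase that removes p53 and is itself a p53 target, was at 26.6, 29.7 and 30.5 RPKM in NC and at 28.0, 30.9 and 17.1 RPKM in HE. HE1 and HE2 lay within or just above the NC range, and HE3 lay well below it. Counting error does not span this gap, since the 95% Poisson interval of HE3 was 16.2 to 18.0 RPKM and the lowest bound among the other samples was 25.6 RPKM. This gave Mdm2 a log2 fold change of -0.23 (SE 0.22, adjusted p = 0.53 in limma), which without HE3 became 0.026.

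Mdm4 (ENSMUSG00000054387, chr1:132986105-133030587), the related protein that masks p53 without marking it for destruction, had the lowest level of the members. It was at 3.75, 3.77 and 3.48 RPKM in NC and at 3.86, 3.41 and 1.58 RPKM in HE. As with Mdm2, HE3 alone stood apart, with 375 reads against 963 to 1068 in the other samples. For Mdm4 the log2 fold change was -0.40 with an interval of -1.15 to 0.35, and without HE3 it was -0.014. In RefSeq a pseudogene and a lncRNA overlap the Mdm4 locus, and reads could be shared with them, because the use of strand in counting is not stated.

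The ratio of Mdm2 to Mdm4 within a sample does not depend on the sample's total. It was 7.10, 7.87 and 8.77 in NC and 7.27, 9.04 and 10.8 in HE. The mean log2 ratio was 2.98 ± 0.15 in NC and 3.16 ± 0.29 in HE (SD, n = 3 each), a difference of 0.18 (two-sided exact permutation test, p = 0.4). Without HE3, which had the highest ratio, the difference was 0.041. The ratio in HE1 lay below 2 of the NC samples, so the groups overlapped.

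Cdkn1a (ENSMUSG00000023067, chr17:29090979-29100722) encodes p21, which binds cyclin-dependent kinases and halts the cell cycle. It was at 62.0, 54.5 and 58.7 RPKM in NC and at 59.6, 60.5 and 50.3 RPKM in HE. The groups overlapped, HE3 being the lowest and NC1 the highest. Its log2 fold change was -0.042 with an interval of -0.32 to 0.23 (adjusted p = 0.843), the closest to 0 among the members, and its sign turned without HE3, at 0.042. A level in HE from 0.803 to 1.17 times that of NC lies within the interval. By the root mean square difference of centred log2 values over the 6 samples, the tested genes nearest to Cdkn1a, out of 10188 compared, were Rbm17 (0.013), Fastk (0.016) and Ankrd40 (0.026). Those nearest to Trp53 were Baz1b (0.028), Nom1 (0.03) and Rab11b (0.031). The members themselves were left out of this search, and no p53 pathway gene of the other lists was among these 6. Those lists hold few of the 10188 genes compared, so this absence decides nothing about the pathway.

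Ccng1 (ENSMUSG00000020326, chr11:40748552-40755309) encodes cyclin G1, which recruits a phosphatase to Mdm2 and is among the most regularly induced p53 targets. It was at 49.3, 59.6 and 69.9 RPKM in NC and at 97.1, 73.3 and 80.7 RPKM in HE. All 3 HE samples were above the highest NC sample, although HE2 exceeded NC3 by little (p = 0.1 in a two-sided exact permutation test, which cannot go lower with 3 against 3). Cyclin G1 mRNA thus had a log2 fold change of 0.49 (SE 0.17, interval 0.10 to 0.89, unadjusted p = 0.0207, adjusted p = 0.203 in limma). It was 0.51 without HE3. It was smaller, at 0.36, without NC1 and at 0.38 without HE1, where the unadjusted limma p-values were 0.0791 and 0.0709.

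Aen (ENSMUSG00000030609, chr7:78895927-78911209), an exonuclease that helps to cut DNA during apoptosis, was at 37.3, 35.2 and 35.9 RPKM in NC and at 38.6, 39.0 and 47.3 RPKM in HE. HE1 and HE2 lay just above the highest NC sample, and HE3 lay further off. Its log2 fold change was 0.20 (SE 0.12, adjusted p = 0.334), and 0.10 without HE3. With Ccng1, it made 2 of 10 members whose HE samples all lay above NC, beside 14.8% of all tested genes.

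Phlda3 (ENSMUSG00000041801, chr1:135766085-135769134), a lipid-binding protein that restrains Akt, was the most abundant member. It was at 174, 194 and 151 RPKM in NC and at 149, 144 and 133 RPKM in HE. All HE values lay below all NC values, but HE1 and NC3 were nearly equal and their counting intervals overlapped. On the log2 scale HE differed by -0.28 (SE 0.13, adjusted p = 0.266), and by -0.23 without HE3. Phlda3 was the 1 member of 10 whose HE samples all lay below NC, beside 17.9% of all tested genes.

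Sesn1 (ENSMUSG00000038332, chr10:41810574-41908436), a stress-induced inhibitor of mTORC1 signaling, was at 27.0, 33.4 and 26.0 RPKM in NC and at 28.1, 20.6 and 17.7 RPKM in HE. HE2 and HE3 lay below every NC sample, whereas HE1 lay among them. Over all samples its log2 fold change was -0.40 (SE 0.19, adjusted p = 0.273). Single samples moved it, from -0.58 without HE1, with an unadjusted limma p of 0.00991, to -0.25 without HE3.

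Zmat3 (ENSMUSG00000027663, chr3:32334792-32365665), an RNA-binding zinc finger protein, was at 7.11, 6.42 and 6.21 RPKM in NC and at 5.59, 6.24 and 4.96 RPKM in HE. The groups overlapped only through HE2, which lay just above NC3. Its log2 fold change was -0.23 (SE 0.14, adjusted p = 0.34), and -0.15 without HE3. A lncRNA overlaps the Zmat3 locus in RefSeq, so its reads have the same limit as those of Mdm4.

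Eda2r (ENSMUSG00000034457, chrX:97333837-97377234), a receptor of the tumor necrosis factor family, was at 5.71, 8.83 and 5.23 RPKM in NC and at 6.92, 6.72 and 9.73 RPKM in HE. NC2 and HE3 were the high samples, so the groups overlapped. For Eda2r the log2 fold change was 0.26 with an interval of -0.31 to 0.82 (adjusted p = 0.527), and it was 0.087 without HE3 and 0.48 without NC2. A pseudogene overlaps this locus in RefSeq.

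**Figure D2:**
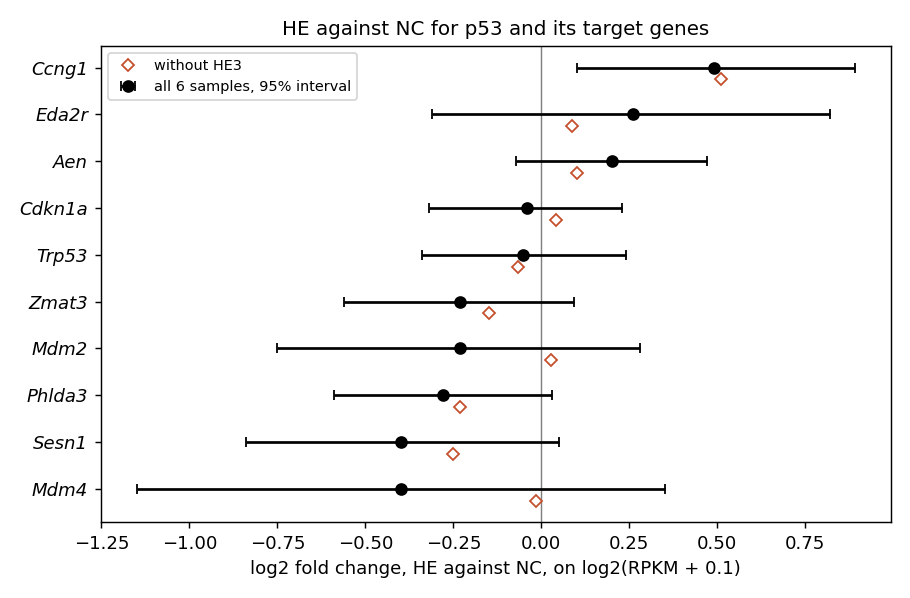
Log2 fold change of HE against NC for the 10 genes on log2(RPKM + 0.1), with 95% intervals from limma over all 6 samples (black) and the value without HE3 (open diamonds). The interval of Ccng1 alone lies on one side of 0, and Mdm2 and Mdm4 move to about 0 without HE3.

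HE3 had the lowest value of the 6 samples in 6 members and the highest in 2. Over all tested genes its deviation differed by gene length. Relative to the NC mean, the median of tested genes in HE3 was 0.052 on the log2 scale for genes up to 2 kb, -0.11 from 2 to 4 kb, -0.22 from 4 to 8 kb and -0.34 over 8 kb, while HE1 and HE2 stayed between -0.045 and 0.11. Mdm4, at 14.8 kb the longest member, was at -1.17 in HE3, Zmat3 (11.4 kb) at -0.40 and Mdm2 (5.07 kb) at -0.76. The short members did not all go the other way, since Phlda3 (1.56 kb) was at -0.37 and Sesn1 (3.33 kb) at -0.69. Aen and Eda2r, of 5.80 and 5.89 kb, were at 0.39 and 0.59. The part of gene length or RNA quality in these values was not tested.

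**Figure D3:**
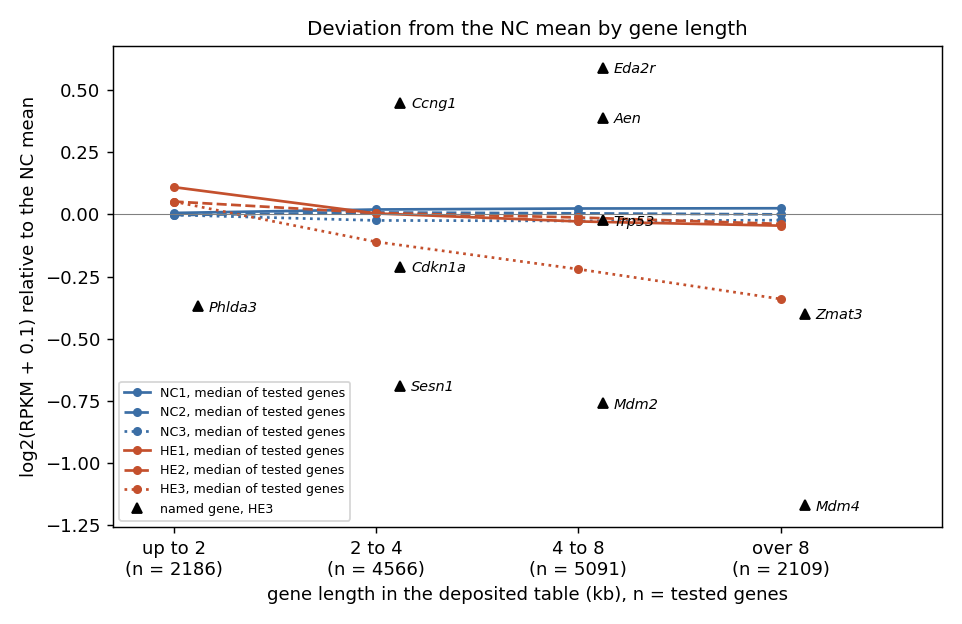
Median deviation from the NC mean on log2(RPKM + 0.1) in 4 classes of gene length, with a line for each sample over all tested genes, and the 10 genes in HE3 as triangles. The HE3 line goes from 0.052 to -0.34 with length, and the triangles scatter widely around it.

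Lists of other p53 target genes held positive and negative values in similar number. Over lists of 37 such genes, 35 were tested, and 16 had a positive and 19 a negative log2 fold change, and the median was -0.055, or 0.041 without HE3. Of these, 4 were higher and 4 lower at an unadjusted p-value under 0.05, shares near the 8.68% and 11.8% of all tested genes, and 0 were called. Among targets in cell cycle arrest and DNA repair, the kinase Plk2 averaged 29.8 ± 5.24 RPKM in NC (SD, n = 3) against 47.7 ± 6.56 RPKM in HE, a log2 fold change of 0.68 (adjusted p = 0.195 in limma). Gadd45a, a damage-induced regulator of arrest and repair, had a log2 fold change of -0.48, and of -0.31 without HE3, where its unadjusted limma p was 0.0524. Sfn, the 14-3-3 protein sigma, had a log2 fold change of -0.69. All HE samples of these 3 genes lay on one side of NC, a trait that the rule for naming genes from these lists required. The same holds for Perp, Sesn2, Cdkn2a, Ep300 and Crebbp below. Of the 35 tested targets, 5 had all HE samples above NC and 6 below, beside 14.8% and 17.9% of all tested genes.

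Among targets in cell death, the membrane protein Perp was at 1.32, 0.715 and 2.75 RPKM in NC and at 4.17, 3.89 and 3.04 RPKM in HE, which is 1.34 on the log2 scale (SE 0.43, adjusted p = 0.195). It was higher in every HE sample, although NC3 came close to HE3. Pmaip1, which encodes the pro-apoptotic protein Noxa, had a log2 fold change of 0.40, and Dram1, a lysosomal protein linked to autophagy, of -0.58. Bax and Bbc3, the best known pro-apoptotic targets, were singled out after their values were seen. Bax averaged 232 ± 9.62 RPKM in NC against 272 ± 60.0 RPKM in HE, with HE3 the highest at 342, and Bbc3 was at 38.9, 61.1 and 46.5 RPKM in NC and at 38.1, 42.9 and 10.2 RPKM in HE, with HE3 again apart.

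Among targets in metabolism and stress, Sesn2, a relative of Sesn1, was at 35.3, 37.5 and 33.0 RPKM in NC and at 21.4, 28.0 and 27.9 RPKM in HE. All HE samples lay below NC, and the log2 fold change was -0.46 (adjusted p = 0.195), and -0.52 without HE3. Zfp365, which protects replicating DNA, had a log2 fold change of 0.57. Sco2 had 0 reads in all 6 samples.

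Of the 20 regulators of p53, all tested, 12 were higher and 8 lower in HE, with a median of 0.051 on the log2 scale. At an unadjusted p-value under 0.05, 1 was higher and 2 were lower, beside 8.68% and 11.8% of all tested genes. Cdkn2a, whose Arf product blocks Mdm2, was at 10.8, 13.1 and 11.6 RPKM in NC and at 15.2, 17.8 and 26.1 RPKM in HE. Every HE sample was above NC, with a log2 fold change of 0.70 (adjusted p = 0.195) and of 0.48 without HE3. The locus also encodes the kinase inhibitor p16, and reads per gene do not separate these products. The acetyltransferases Ep300 and Crebbp, which act as p53 coactivators, had log2 fold changes of -0.64 and -0.56 (-0.38 and -0.36 without HE3, where the unadjusted limma p of Crebbp was 0.0575), and both were below NC in every HE sample. Atm, the kinase that signals DNA double-strand breaks to p53, averaged 4.82 ± 0.153 RPKM in NC against 4.97 ± 0.132 RPKM in HE, and was singled out after its values were seen.

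The cyclins and kinases held back by p21, and the replication clamp, lie downstream of Cdkn1a. A list of 26 genes held partners of p21 and other inhibitors of cyclin-dependent kinases, and also Rb1, Rbl1, Rbl2 and E2f and Lin genes. Of these 26, 17 were higher and 9 lower, and the median was 0.18 on the log2 scale (0.12 without HE3). At an unadjusted p-value under 0.05, 6 were higher, beside 8.68% of all tested genes, and 2 were lower, beside 11.8%. Ccnb1, a mitotic cyclin, averaged 18.1 ± 2.88 RPKM in NC against 32.5 ± 6.14 RPKM in HE, a log2 fold change of 0.84 (adjusted p = 0.195). Pcna, the replication clamp that p21 also binds, differed by 0.81 on the log2 scale (0.56 without HE3) and Ccne2, a cyclin of S-phase entry, by 0.78 (0.48 without HE3). Cdkn1b, which encodes the related inhibitor p27, had a log2 fold change of -0.70, and of -0.34 without HE3. The other inhibitors of this list, given after their values were seen, went both ways. Cdkn1c was at -0.046 (0.83 without HE3) and Cdkn2b at -0.43 (-0.30 without HE3). Cdkn2c was at 0.15 and Cdkn2d at 0.09 (0.031 and 0.05 without HE3). All 13 proliferation markers were higher in HE, and their median was 0.51 on the log2 scale (0.35 without HE3). Of these, 8 passed an unadjusted p-value of 0.05 (5 without HE3), beside 8.68% of all tested genes that were higher at that threshold. Mki67, a marker of cycling cells, averaged 20.1 ± 3.78 RPKM in NC against 32.4 ± 3.98 RPKM in HE, and the replication licensing genes Mcm2, Mcm5 and Mcm6 had log2 fold changes of 0.71, 0.82 and 0.55. Without HE3 these were 0.43, 0.54 and 0.36, and the unadjusted limma p of Mcm6 was 0.0559. None of these genes was called.

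**Figure D4:**
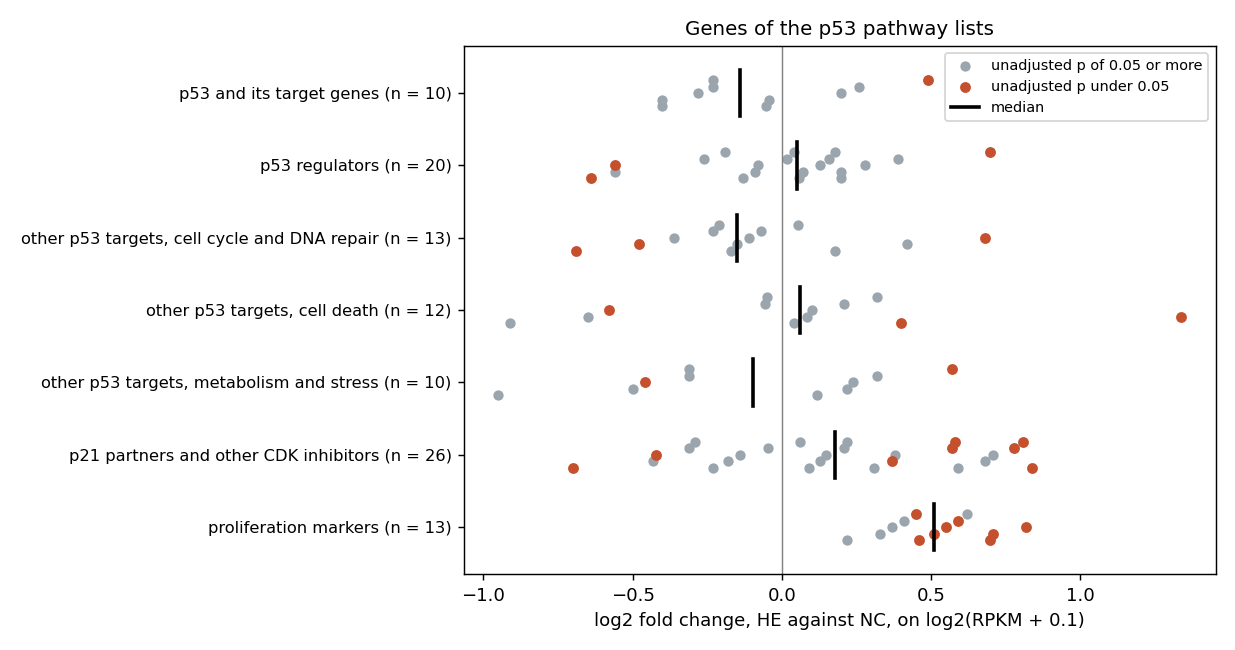
Log2 fold change of HE against NC on log2(RPKM + 0.1) for the tested genes of 7 lists, with each list's median as a bar and genes at an unadjusted p-value under 0.05 in red. The p53 lists spread to both sides of 0, and the proliferation markers lie above it.

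Markers of other cells were compared in the same samples. The summed level of 8 mesenchymal markers was 25.7 to 77.2 RPKM in NC and 66.5 to 148 RPKM in HE, of 8 endothelial markers 2.79 to 3.81 and 4.67 to 6.20 RPKM, and of 10 microglia markers 1.17 to 1.66 and 3.21 to 10.9 RPKM. By direction, 6 of 7, 3 of 4 and 4 of 5 tested markers of these lists were higher, and 1 in each was lower. The lower ones were Prrx1, Flt1 and P2ry12, with log2 fold changes of -0.50, -0.20 and -0.10, and their groups overlapped. At an unadjusted p-value under 0.05, 3, 2 and 2 were higher, beside 8.68% of all tested genes, and 0 were lower, beside 11.8%. Dcn, a matrix proteoglycan, averaged 3.62 ± 2.02 RPKM in NC against 12.7 ± 8.48 RPKM in HE, and the endothelial cadherin Cdh5 averaged 0.601 ± 0.227 against 2.12 ± 0.563 RPKM. Other tested markers of these lists with groups that did not overlap were the mesenchymal Twist1 (log2 fold change 1.55) and Col3a1 (26.8 ± 15.6 RPKM in NC against 70.0 ± 23.5 in HE), the endothelial Esam (1.11) and the microglial Tmem119 (1.36). C1qb, a complement subunit, had 2, 0 and 0 reads in NC and 22, 12 and 35 reads in HE. It entered the test through its HE samples alone, so its place among the tested microglia markers rested on the group where it was high. The microglial C1qa, C1qc and Tyrobp had too few reads to be tested, and their HE samples also all lay above NC. Aif1 and Ptprc, also untested, overlapped between the groups. Of 10 neural progenitor markers 2 were higher and 8 lower (median log2 fold change -0.24), of 10 neuron markers 3 and 7 (-0.18), and of 8 astrocyte markers 4 and 4 (0.018, or 0.10 without HE3). Those at an unadjusted p-value under 0.05 were Prom1 of progenitors, with a log2 fold change of -0.87 (-0.56 without HE3), Map2 and Elavl4 of neurons, with 0.49 and 0.74, and the astrocyte genes S100b, Sparcl1 and Gjb6, the first of these with 0.92 and the next with 0.70. Markers with negative values, named after they were seen, included Elavl3 (-0.72) and Stmn2 (-0.69) of neurons and Gfap (-0.86) of astrocytes, whose groups overlapped, and the astrocyte gene Aldh1l1 (-0.27), whose groups did not. Without HE3 these 4 were at -0.31, -0.15, -0.41 and -0.31. Gjb6, an astrocyte connexin, averaged 0.34 ± 0.152 RPKM in NC against 1.23 ± 0.391 in HE. Summed astrocyte markers were 1494 to 1911 RPKM in NC and 1152 to 1730 in HE, neuron markers 47.9 to 79.3 and 54.6 to 70.2, neural progenitor markers 3087 to 3725 and 2963 to 4703, and oligodendrocyte lineage markers 291 to 321 and 315 to 515. Immediate early genes, which respond to dissociation and handling, summed to 425 to 543 RPKM in NC and 187 to 779 RPKM in HE. HE3 gave the low end of the HE range, and the sums of HE1 and HE2 both lay above every NC sample. The median log2 fold change of these genes was -0.17, or 0.53 without HE3. The part of these cells, or of handling, in the values of Ccng1, Aen, Phlda3 and the lists above was not tested.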

How the data were processed

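RNA was sequenced from 3 NC and 3 HE samples of first-passage hypothalamic neurospheres. The authors filtered the reads and aligned them with TopHat2 to mm10 (CASAVA 1.7 is also named in the submitters' processing notes), and the counting tool, annotation and use of strand are not given in the sources used here. The labels and the study's methods name different sequencers. The authors deposited RPKM and unnormalized read counts per gene; large counts carry a comma, which was removed. RPKM differed from count, length and total by at most 4.99e-07.

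Genes entered the test with 15 or more reads in all and, in 3 or more samples, the equivalent of 10 reads at the median depth. The study tested counts with a count model and, at the same cutoffs of fold change and false discovery rate, reported mRNAs both higher and lower in HE. Here log2(RPKM + 0.1) was tested with limma (version 3.58.1, R 4.3.3, variance trend on), and the script was tested on simulated data. Symbols were found for 21781 of 22048 identifiers. Coordinates and promoters are from RefSeq, GRCm38.p6. Alternatives were a pseudocount of 1, median-of-ratios scaling, 2 other filters, the replicate number as a block, voom on read counts, sample weights, robust empirical Bayes and each sample left out. Poisson intervals (95%) cover counting error only. p-values measure the spread between samples, each of 2 mice.

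The members and lists were chosen with earlier results of these data known. All 10 members were named, and from each other list up to 4 genes with an unadjusted p-value under 0.05, groups that do not overlap and the largest fold change. Nearest genes were sought outside the members, among those with a mean log2 CPM of at least 3. Pvt1 was not analysed here.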

Additional observations from a re-analysis of the deposited data

How the results depend on the processing

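No member was called in any of the 14 alternatives to the limma test, in which their adjusted p-values ran from 0.0941 to 0.998. Over all tested genes 0 were called as well, apart from 268 with sample weights, where HE3 had a weight of 0.158 and the others 0.852 to 2.87, and 0 to 103 when samples were left out, the 103 without NC3. Members at an unadjusted p-value under 0.05 numbered 1, but 3 with sample weights (Ccng1, Sesn1 and Phlda3) and 0 to 2 with a sample left out, 0 without NC1 and 2 without NC3. Ccng1, Aen, Eda2r, Mdm4, Sesn1, Phlda3 and Zmat3 kept their direction in all 14. The values nearest 0 changed sign. Trp53 was at 0.0086 with median-of-ratios scaling and between -0.13 and 0.0071 with a sample left out. Cdkn1a was at 0.018 with median-of-ratios scaling, at 0.0097 with sample weights and between -0.091 and 0.042 with a sample left out. Mdm2 was at 0.056 with sample weights and between -0.40 and 0.026 with a sample left out. Without HE3, chosen after the data were seen, the list medians that changed sign were 0.006 for the members, 0.041 for the other p53 targets together, 0.067 for the p53 family (1 tested gene), 0.068 for targets in cell cycle and repair, 0.11 for oligodendrocyte lineage markers, 0.53 for immediate early genes and 0.0081 for genes from 2 to 4 kb. The ratio of Mdm2 to Mdm4 kept its direction in 8 alternatives, with a difference between 0.041 and 0.33 when a sample was left out.

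The replicate numbers are not stated to pair the samples. With the replicate block 0 genes and 0 members were called, Ccng1 kept an unadjusted p of 0.0356, and the ratio differed by 0.18 (exact sign-flip permutation, p = 0.25). Deviations of samples with the same number correlated at 0.156, 0.087 and 0.06 across genes, and every sample correlated best with its own number, a hint from the data only. With 3 samples a group, limma's intervals for single members reached a log2 fold change of up to 1.15 in size, which limits what could be detected.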
